A study of Homo sapiens with 7 samples.

Results

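Cell adhesion molecules of the immunoglobulin superfamily were followed across 7 Affymetrix HG-U133 Plus 2 arrays of Panc1, an established line from a human pancreatic carcinoma. The genes were LSAMP, NTM, OPCML and NEGR1, which make up most of the IgLON family, together with ALCAM, L1CAM, NRCAM, MCAM, NCAM1 and CADM1, 10 of the 19775 genes named on the array. They were read by every probe set annotated to exactly 1 of these symbols, 37 of 54613 probe sets. Another 4 probe sets carry MCAM together with the symbol of a microRNA gene and were left out. The set was chosen by gene symbol, with log2 differences between the arms already known, among them those of LSAMP and ALCAM. Every difference between those arms is therefore given as a description of the members, with no p-value.

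The arm labelled S100P held 4 arrays, 2 each of clones 1 and 5, which had been stably transfected with pcDNA3.1 carrying S100P with a V5-His tag. The vector arm held 3 arrays, 2 of clone V3 and 1 of clone V1, transfected with the same plasmid backbone without S100P. S100P is a small calcium-binding protein, and the study looked for genes it regulates. All cells were kept in serum-containing medium and taken before confluence, and each clone had been grown from a single cell, so a clone's own history travels with its arm. Arrays are called 1a, 1b, 5a, 5b, V3a, V3b and V1. V1 has a sample name with a prefix unlike that of the remaining 6, so what belongs to this clone and what to a different handling cannot be told apart. Nothing states that arrays a and b of a clone were separate cultures, so p-values measure the spread between these arrays, which may be technical.

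These proteins hold cells together, or to the matrix, through immunoglobulin-like domains on the cell surface. IgLON proteins are attached to the outer face of the cell membrane by a glycosylphosphatidylinositol anchor and bind each other in like and unlike pairs. They are best known from neurons, where LSAMP marks the limbic system. ALCAM binds itself and the T cell receptor CD6, MCAM binds endothelial laminin, L1CAM and NRCAM link to the ankyrin cytoskeleton, NCAM1 is the classical neural adhesion molecule, and CADM1 is a nectin-like molecule of epithelial contacts.

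The values are log2 expression values made by the authors with RMA. The medians of the arrays lay between 4.51 and 4.59, and a probe set below its array's median is called dim here. No detection calls were used, so how far a dim reading stands above background is unknown. Over all probe sets, the a and b arrays of a clone had r of 0.996 to 0.998, and V1 correlated with the other 6 at 0.982 to 0.990. The S100P probe set read 5.80, 5.95, 5.36 and 5.45 on arrays 1a, 1b, 5a and 5b, against 5.65, 6.01 and 4.65 on V3a, V3b and V1. The arms overlapped (log2 difference 0.27, SE 0.32, limma adjusted p = 0.846). It is not known whether the probes match the transfected sequence, and directions follow the labels of the arms. Of 11 pancreatic ductal and epithelial markers, 5 read at least 8 on every array, among them the keratin genes KRT8, KRT18 and KRT19 and the surface gene EPCAM, while the chloride channel gene CFTR was dim on all 7. Of 13 neural markers 5 were dim on all 7 and 2 read at least 8 on every array. Markers of fibroblasts (7 of 10), endothelial cells (7 of 10) and leukocytes (4 of 8) were dim on all arrays at the probe set of highest mean. No marker of these 3 lists, nor of the epithelial or neural list, passed the limma threshold between the arms, beside 1.55% of all genes. At an unadjusted limma p under 0.05 were 6 epithelial and 2 neural markers, beside 6468 of all 54613 probe sets. Yet 4 of the 11 epithelial markers did not overlap between the arms, beside 11.4% of all probe sets, a share that is not per gene. Their differences were 2.23 (SE 0.57) for CDH1, 0.91 (SE 0.17) for SOX9, -0.87 (SE 0.18) for KRT7 and -1.10 (SE 0.35) for TSPAN8. CDH1 was dim on V1, and TSPAN8 was dim on V1 and on all 4 arrays labelled S100P. The neural markers SYT1, with 1.51 (SE 0.39), and MAP2, with 0.43 (SE 0.13), did not overlap either. The part of these markers in the member differences was not tested.

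LSAMP was the member that set the arms apart most clearly. It was higher on all 4 arrays labelled S100P than on all 3 vector arrays at 5 of its 6 probe sets, by 2.02-fold to 10.3-fold. At 3 of these 5, 228218_at, 229244_at and 235111_at, all 3 vector arrays were dim, so those folds are set against readings of unknown height over background. At 214460_at, its probe set of highest mean, it read 6.68, 6.42, 6.26 and 6.86 on arrays 1a, 1b, 5a and 5b, against 4.65, 4.74 and 4.46 on V3a, V3b and V1. The means were 6.55 ± 0.27 in the arm labelled S100P (SD, n = 4) and 4.62 ± 0.14 in the vector arm (SD, n = 3), a fitted log2 difference of 1.95 (SE 0.18). The vector arrays sat at about the array median there, with V1 just under it.

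The widest gap was at 228218_at. This LSAMP probe set read 6.67, 6.61, 6.47 and 6.78 on the arrays labelled S100P, against 3.14, 3.21 and 3.41 on the vector arrays. Its log2 difference was 3.36 (SE 0.12), or 10.3-fold. At 229244_at LSAMP read 5.72, 5.64, 5.45 and 6.23, against 4.10, 4.12 and 4.39, a difference of 1.54 (SE 0.22). The spread in the arm labelled S100P was widest there, and 5b was the highest array, as it was at all 5 of the separating LSAMP probe sets. At 235494_at it read 5.50, 5.68, 5.79 and 5.82, against 4.59, 4.75 and 4.72, and at 235111_at 4.59, 4.58, 4.41 and 4.64, against 3.48, 3.70 and 3.36. Those differences were 1.01 (SE 0.11) and 1.05 (SE 0.12). The sixth probe set, 1570190_at, was dim on all 7 arrays and did not separate the arms, with 2.97 to 3.36 in the arm labelled S100P and 2.81 to 3.29 in the vector arm.

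**Figure D1:**
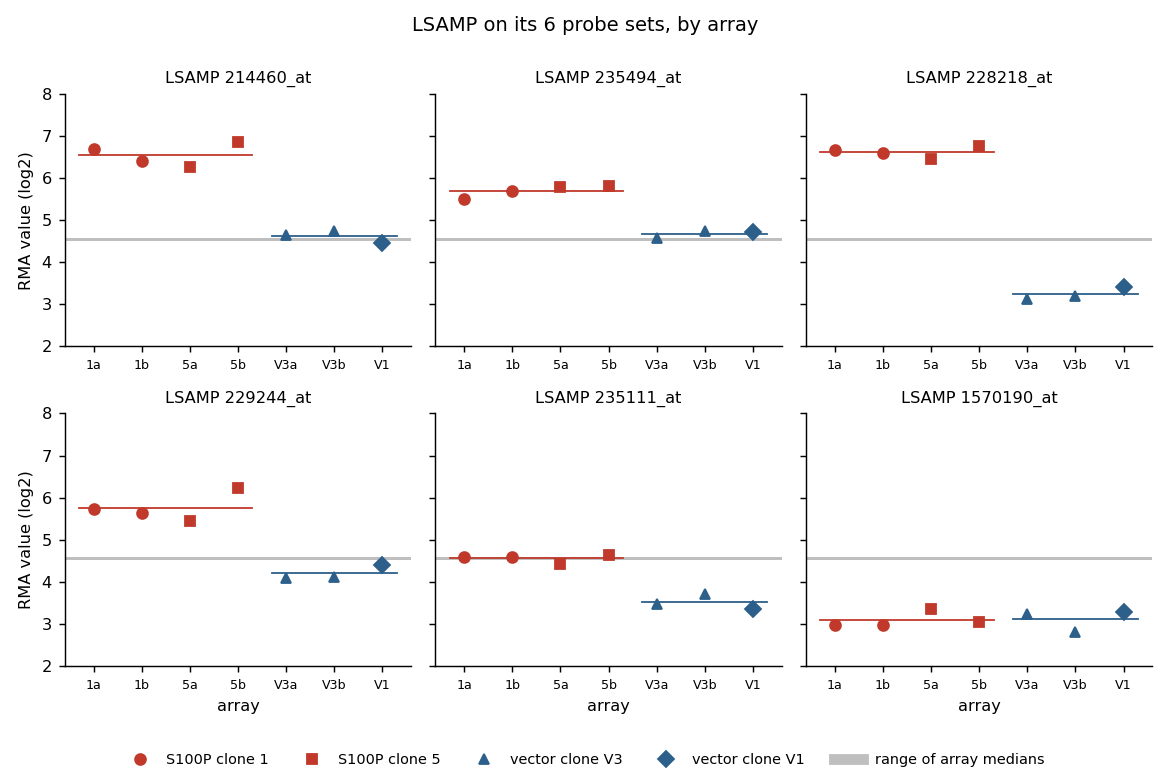
RMA log2 values (vertical axis) of the 6 LSAMP probe sets on each array (horizontal axis), red for arrays labelled S100P and blue for vector arrays; lines are arm means and the grey band spans the array medians, 4.51 to 4.59. The arms are apart at 5 probe sets and overlap at 1570190_at.

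For LSAMP no difference between clones of the same arm passed the threshold. Set against the equal-weight mean of the vector clones, clone 1 was higher by 3.34 and clone 5 by 3.33 at 228218_at, and by 1.97 and 1.98 at 214460_at. Those comparisons share their vector arrays. The difference between clones 5 and 1 themselves, which uses no vector level, was 0.01 (SE 0.19, limma adjusted p = 0.997) at 214460_at and -0.02 (SE 0.12, limma adjusted p = 0.969) at 228218_at. Between V1 and V3 it was -0.23 (SE 0.24, limma adjusted p = 0.704) and 0.24 (SE 0.15, limma adjusted p = 0.455) at the same probe sets, the second of them dim on all 3 vector arrays. Over the 7 arrays the correlations among the 6 LSAMP probe sets had a median of 0.956 and ran from -0.25 to 0.989. The probe sets share the arrays, so this describes them only.

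LSAMP and ALCAM both lie on human chromosome 3. Their promoters are shown because these are the members whose bright probe sets kept the arms apart. The sequences are from RefSeq, build GRCh38.p14, and run from 250 bases before to 50 bases after the start, 5′ to 3′ on the gene's strand. Capitals mark GC boxes, the Sp1-type motif GGGCGG, read on both strands. The LSAMP window is chr3:116445438-116445737 on the minus strand, and the ALCAM window is chr3:105366659-105366958 on the plus strand.
LSAMP: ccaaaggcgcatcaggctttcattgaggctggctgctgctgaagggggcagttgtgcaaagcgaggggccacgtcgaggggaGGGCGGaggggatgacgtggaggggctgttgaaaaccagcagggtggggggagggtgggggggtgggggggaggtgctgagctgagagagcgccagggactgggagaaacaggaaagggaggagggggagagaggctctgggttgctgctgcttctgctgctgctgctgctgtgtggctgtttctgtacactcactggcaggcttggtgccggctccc
ALCAM: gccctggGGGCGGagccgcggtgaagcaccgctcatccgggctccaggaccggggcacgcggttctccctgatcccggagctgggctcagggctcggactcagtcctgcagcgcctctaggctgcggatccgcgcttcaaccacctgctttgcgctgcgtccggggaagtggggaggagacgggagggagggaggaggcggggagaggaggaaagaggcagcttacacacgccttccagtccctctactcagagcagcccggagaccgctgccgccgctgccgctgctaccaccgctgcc

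Each window held 1 GC box, a motif present in 45.0% of the 35116 RefSeq promoter windows of this length. Neither held a TATA box (TATAAA, in 11.5% of windows), an E box (CACGTG, 7.26%) or an AP-1 motif (TGANTCA, 7.71%) on either strand. LSAMP's window had 8 CpG dinucleotides and a G+C content of 64.7%, with 39.3% of all windows holding fewer CpGs. ALCAM's had 26 CpGs and a G+C content of 70.0%, and 69.9% of windows held fewer. The median over all windows was 14. Of the 10 genes 7 had an entry, and NEGR1, NCAM1 and CADM1 are named only.

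The other IgLON members, NTM, OPCML and NEGR1, were dim at most probe sets and did not set the arms apart. They had 9 probe sets, of which 8 were below the median on all 7 arrays. OPCML, known as a tumour suppressor of ovarian epithelium, read 3.91, 4.12, 4.13 and 4.45 on the arrays labelled S100P and 3.96, 4.28 and 4.12 on the vector arrays at 206215_at. NTM, or neurotrimin, read 4.31, 4.36, 4.36 and 4.36 against 4.46, 4.28 and 4.57 at 222020_s_at. Their differences at these probe sets were 0.03 (SE 0.16) for OPCML and -0.10 (SE 0.10) for NTM. The arms overlapped at every probe set of the 3 genes. IGLON5, an IgLON gene outside the set, was above the array median on all 7 arrays at 244694_at. Its difference was 0.05 (SE 0.16), with overlapping arms.

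NEGR1, a neuronal growth regulator, read 4.21, 3.97, 4.0 and 3.97 on the arrays labelled S100P, against 3.39, 3.69 and 4.08 on V3a, V3b and V1, at 243357_at. The difference was 0.29 (SE 0.17). V1 lay among the arrays labelled S100P and V3 below them. At 229461_x_at, whose suffix marks probes that may match other transcripts, the difference was 0.43 (SE 0.28), and the other probe sets gave 0.00 (1553194_at) and -0.04 (239548_at). Between V1 and V3 the difference at 243357_at was 0.54 (SE 0.16, limma adjusted p = 0.113), which did not pass. Dim values limit what these arrays can show for NTM, OPCML and NEGR1.

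ALCAM was bright in every clone and brighter in both clones labelled S100P. At 201952_at it read 9.11, 9.10, 8.76 and 8.85 on arrays 1a, 1b, 5a and 5b, against 7.31, 7.53 and 8.05 on V3a, V3b and V1. The means were 8.96 ± 0.18 in the arm labelled S100P (SD, n = 4) and 7.63 ± 0.38 in the vector arm (SD, n = 3), a difference of 1.29 (SE 0.19), or 2.44-fold. At 201951_at it read 7.52, 7.54, 7.45 and 7.18, against 5.63, 5.86 and 6.72, a difference of 1.30 (SE 0.25). The arms did not overlap at either probe set. The third, 1569362_at, was dim on all arrays, with a difference of 0.22 (SE 0.11) and overlapping arms.

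The ALCAM values also split the vector clones. V1 was higher than V3 by 0.62 at 201952_at (SE 0.13, 1.54-fold, limma adjusted p = 0.0382) and by 0.97 at 201951_at (SE 0.15, 1.96-fold, limma adjusted p = 0.0161), V1 being above both V3 arrays at each. Clones 5 and 1 differed by -0.30 (SE 0.10, limma adjusted p = 0.227) at 201952_at, which did not pass. From low to high the clones at 201952_at were V3, V1, 5 and 1, and the step from V1 to 5, which crosses the arms, was not tested on its own. Without clone V3 the difference between the arms was 0.91, and ALCAM was then not called at any probe set. Whether the LSAMP difference varied less between vector clones than the ALCAM difference was not tested.

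L1CAM was bright in all clones and its arms overlapped. It is known from neurons and from carcinomas, where it has been linked to invasion. At 204584_at it read 9.98, 10.13, 9.65 and 9.90 on the arrays labelled S100P, against 10.41, 10.54 and 9.57 on V3a, V3b and V1. V3 held the highest values and V1 the lowest, so the arm difference of -0.20 (SE 0.24) turned to 0.34 without clone V3. V1 was 1.87-fold lower than V3 there (log2 difference -0.90, SE 0.15, limma adjusted p = 0.0174). At the other probe set, 204585_s_at, L1CAM read 6.71, 6.90, 6.31 and 6.69 against 7.11, 7.23 and 6.90, and V1 minus V3 was -0.26 (SE 0.18, limma adjusted p = 0.511). The direction of V1 minus V3 was the same at both, and the call was made at 1 of them. The arm difference at 204585_s_at was -0.41 (SE 0.17). It ran from -0.61 to -0.25 over the alternatives fitted to this probe set, so its sign did not turn there. NRCAM, its relative, was dim on all arrays at both probe sets, between 2.83 and 3.81.

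**Figure D2:**
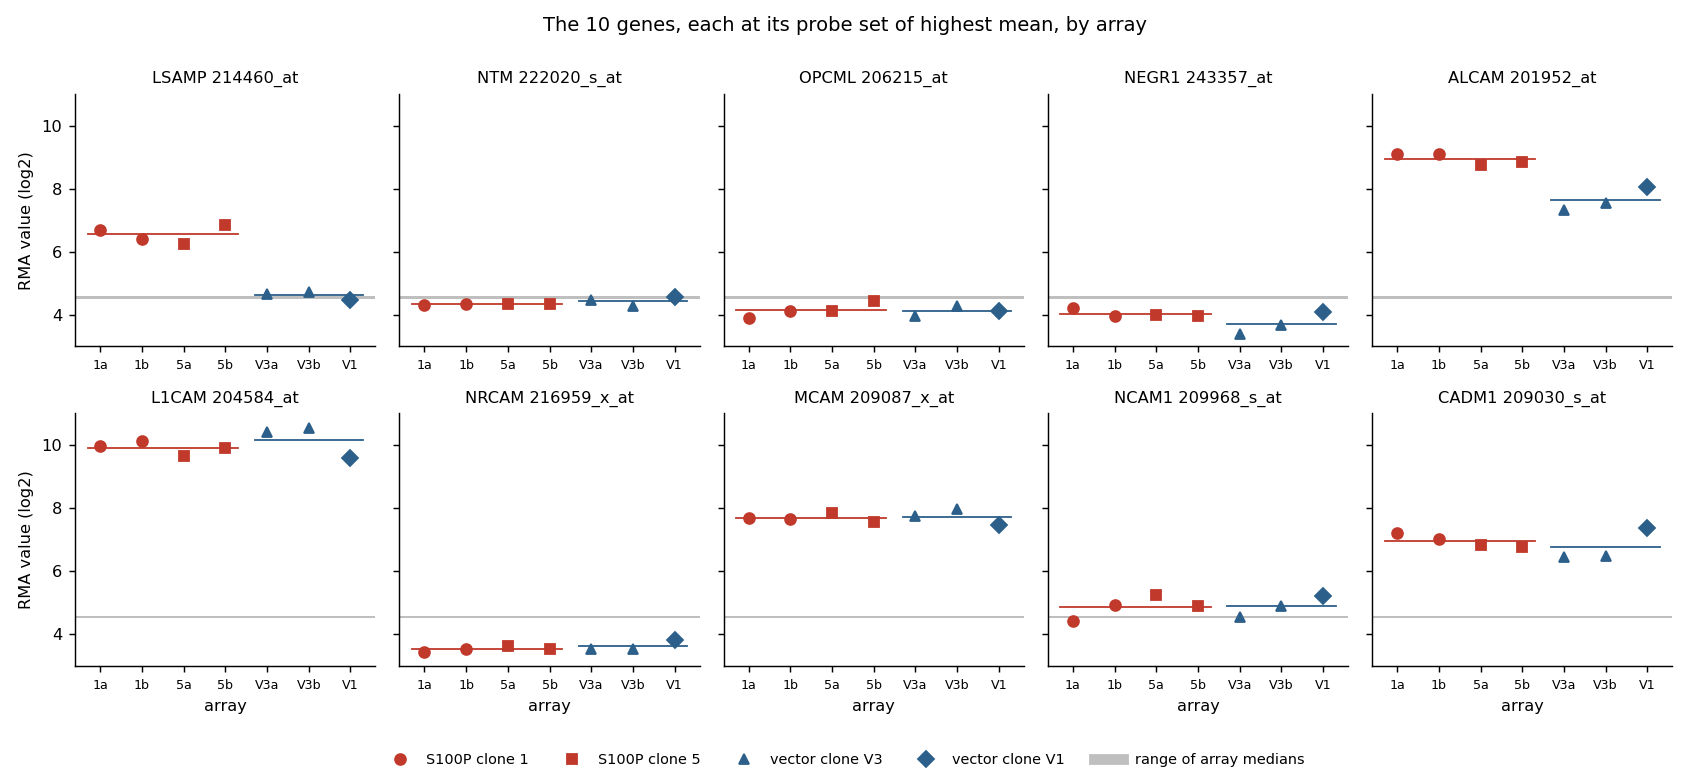
RMA log2 values (vertical axis) of the 10 genes at the probe set of highest mean on each array (horizontal axis), red for arrays labelled S100P and blue for vector arrays; lines are arm means and the grey band spans the array medians. LSAMP and ALCAM are the genes whose arms do not overlap, and in ALCAM, L1CAM and CADM1 the V1 array lies apart from the V3 arrays.

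CADM1 gave different patterns at its bright probe sets. At 209030_s_at it read 7.23, 7.03, 6.82 and 6.78 on arrays 1a, 1b, 5a and 5b, against 6.44, 6.48 and 7.36 on V3a, V3b and V1. V1 was above all other arrays and 1.87-fold above V3 (log2 difference 0.90, SE 0.12, limma adjusted p = 0.00993). At 209031_at CADM1 read 6.32, 6.20, 5.28 and 5.32, against 6.23, 5.80 and 6.02, so clone 5 was low and the vector clones were level, with V1 minus V3 at 0.00 (SE 0.18, limma adjusted p = 1.0). There clone 5 was 1.94-fold lower than clone 1 (log2 difference -0.96, SE 0.14, limma adjusted p = 0.0240). At 209030_s_at that difference was -0.33 (SE 0.10, limma adjusted p = 0.172), of the same sign and not called. The other 4 CADM1 probe sets were dim on all arrays and not called in any contrast. Between the arms the difference was 0.15 (SE 0.24) at 209030_s_at and -0.24 (SE 0.28) at 209031_at, with overlap at both.

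MCAM and NCAM1 showed no separation of arms or clones past the threshold. MCAM, a marker of endothelium and melanoma, read 7.68, 7.66, 7.85 and 7.56 on the arrays labelled S100P and 7.77, 7.96 and 7.45 on the vector arrays at 209087_x_at, a difference of -0.01 (SE 0.15). NCAM1 read 4.44, 4.93, 5.25 and 4.89 against 4.56, 4.89 and 5.21 at 209968_s_at, a difference of -0.04 (SE 0.24), and 5 of its 7 probe sets were dim on all arrays. At 1 dim NCAM1 probe set, 212843_at, the arms did not overlap, with 2.73 to 2.91 in the arm labelled S100P and 2.96 to 3.15 in the vector arm. The fitted difference was -0.19 (SE 0.10).

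Counted over all 37 probe sets, 6 were past a limma adjusted p of 0.05 between the arms, all higher in the arm labelled S100P, beside 1.12% of all 54613 probe sets (0.776% called higher, 0.342% lower). The 6 were 5 of LSAMP and 201952_at of ALCAM. Since the genes were chosen with this comparison known, and probe sets of 1 gene read the same transcripts, nothing is read from that share. The arms did not overlap at 8 of the 37, 7 higher and 1 lower, against 11.4% of all probe sets (6.74% higher, 4.63% lower). The median absolute difference was 0.18 over the members and 0.10 over all probe sets, while the signed medians were -0.03 and -0.00, with 16 members above 0 and 21 below. The calls follow the comparison the genes were chosen with and support nothing, and some depend on single arrays or clones. ALCAM at 201952_at was not called when 1b, 5a, 5b, V3a or V3b was left out, nor when clone 1 or clone V3 was. LSAMP at 229244_at was not called without V3a, V3b or clone V3, and at 235111_at not without V3a. Without clone 1, CADM1 at 209031_at was called too, lower in the arm labelled S100P. With 1 averaged value per clone, 5 of the 6 calls were lost.

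**Figure D3:**
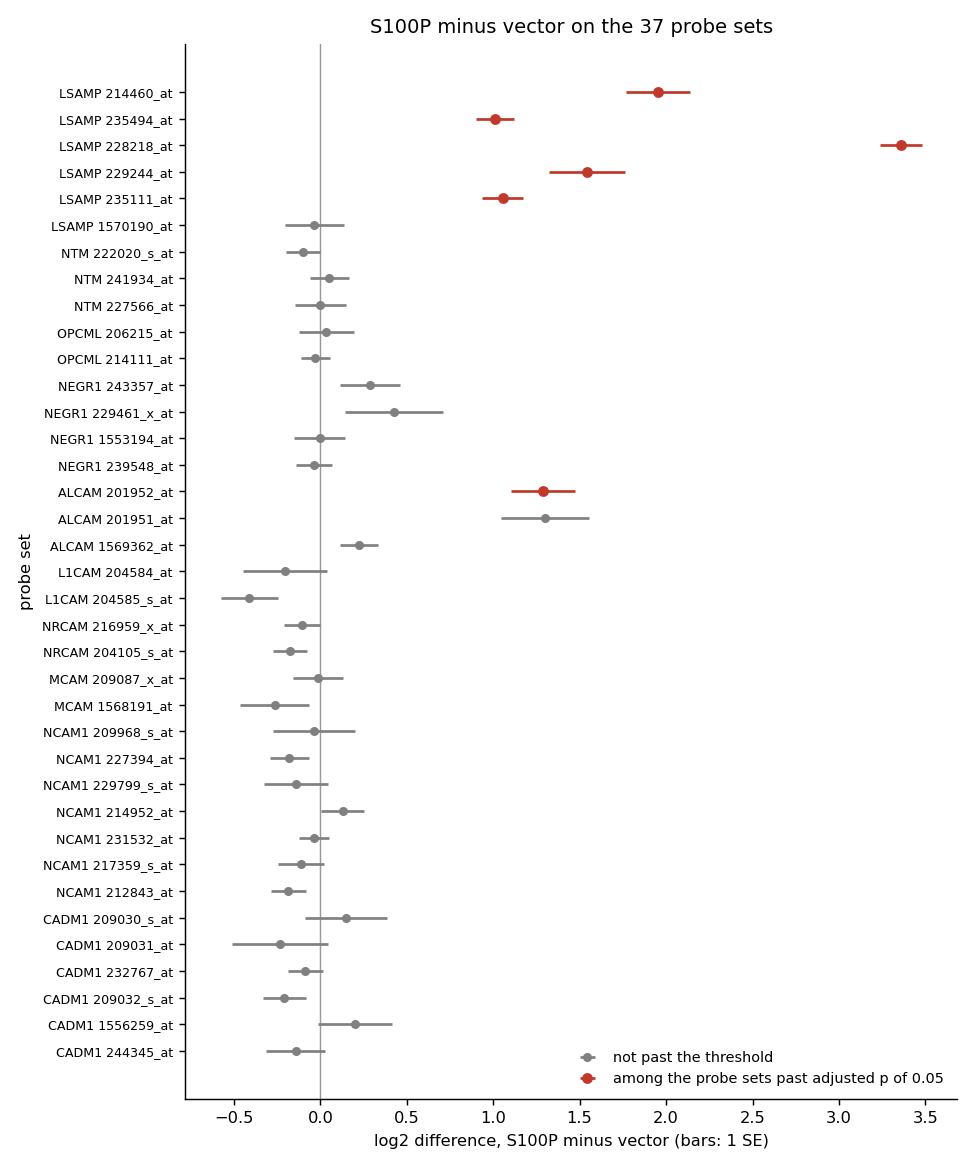
Fitted log2 difference, arm labelled S100P minus vector arm (horizontal axis, bars 1 SE), for each of the 37 probe sets (vertical axis), red where the probe set was among those past the threshold. The 5 higher LSAMP probe sets lie between 1.01 and 3.36 and the bright ALCAM probe sets at 1.29 and 1.30, while the rest lie between -0.41 and 0.43.

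Contrasts between clones of the same arm are not the comparison on which the genes were chosen, and were tested. Clones 5 and 1 differed at 1 of 37 probe sets, the CADM1 one given above, beside 2.19% of all probe sets (0.584% higher, 1.6% lower). V1 and V3 differed at 4 of 37, with ALCAM higher at 201952_at and 201951_at, CADM1 higher at 209030_s_at and L1CAM lower at 204584_at in V1, beside 5.85% of all (2.57% higher, 3.28% lower). The members called make 2.7% and 10.8% of the 37, in 1 gene and in 3 genes. These tests use the spread between arrays of a clone with 3 residual degrees of freedom, and V1, with 1 array, is assumed to vary like the other clones. Leaving out a single array of clone 1, 5 or V3 left 0 members called by limma in either contrast, with 3 to 7 at an unadjusted p under 0.05 between clones 5 and 1 and 7 to 11 between V1 and V3. In V1 minus V3 the values then ran from 0.51 to 0.73 for ALCAM, from -0.97 to -0.83 for L1CAM and from 0.88 to 0.92 for CADM1.

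**Figure D4:**
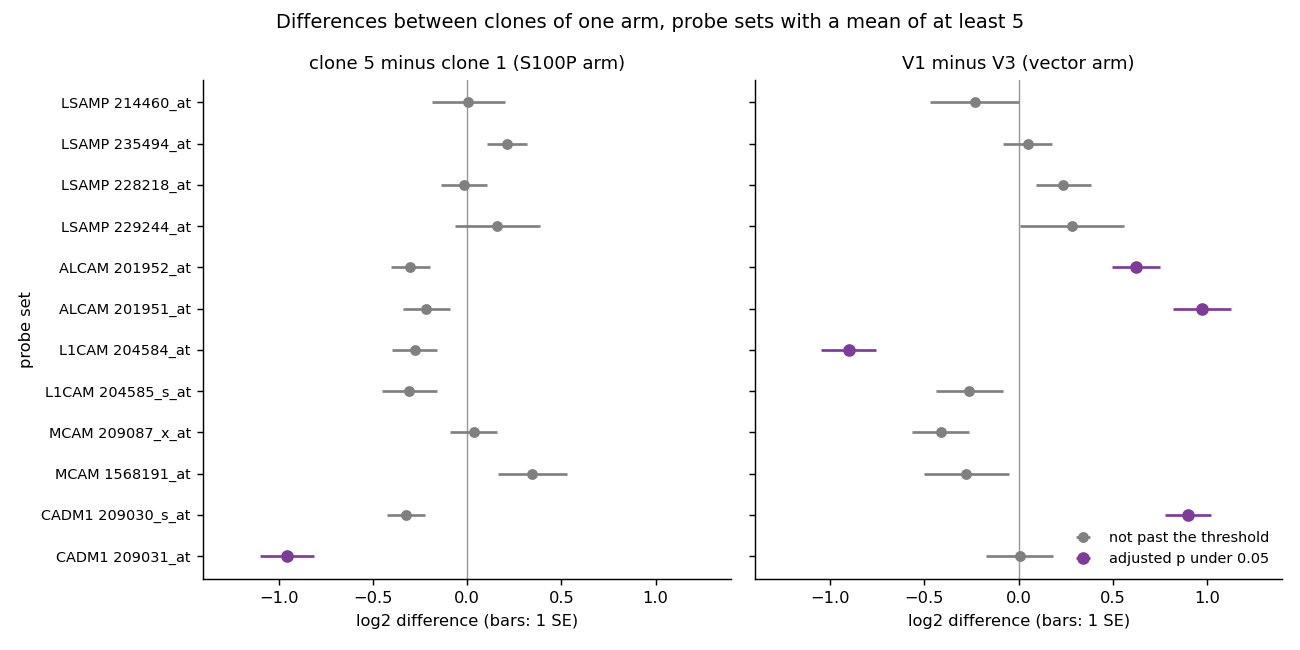
Log2 differences between clones (horizontal axes, bars 1 SE), clone 5 minus clone 1 on the left and V1 minus V3 on the right, for the 12 member probe sets (vertical axis) with a mean of at least 5. Purple points passed a limma adjusted p of 0.05, 1 of CADM1 on the left and those of ALCAM, L1CAM and CADM1 on the right. LSAMP at 228218_at and 229244_at reached that mean through the arrays labelled S100P and was dim on all 3 vector arrays, so those points on the right compare dim readings.

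Other immunoglobulin-type adhesion genes did not pass between the arms. Of 60 listed genes 54 were measured, and 0 were called at the probe set of highest mean by limma. This stands beside 1.55% of 19775 genes (1.03% higher, 0.526% lower). At an unadjusted limma p under 0.05 were 5 of the 54, beside 6468 of all 54613 probe sets. Of the 54, 22 were dim on all 7 arrays, which limits the differences they can show. The median difference over the 54 was -0.0049, against -0.00013 over all genes. Their median absolute difference was 0.07, against 0.12. The arms did not overlap at BCAM (0.57, SE 0.15) and JAM3 (0.68, SE 0.15), beside 11.4% of all probe sets, a share that is not per gene. Between V1 and V3, 2 were called higher in V1 and 3 lower, beside 7.72% of genes (2.64% higher, 5.08% lower). The junction gene MPZL2 was higher by 0.49 (SE 0.10, limma adjusted p = 0.0407) and THY1, a surface glycoprotein of fibroblasts and neurons, by 0.68 (SE 0.15, limma adjusted p = 0.0463). The leukocyte ligand ICAM1 was lower, with a difference of -0.67 (SE 0.13, limma adjusted p = 0.0279), and so were ICAM4, with -1.06 (SE 0.17, limma adjusted p = 0.0180) and the sidekick gene SDK1, with -0.89 (SE 0.12, limma adjusted p = 0.0100). MPZL2 was dim on all 7 arrays, so its call compares dim readings, and ICAM4 was dim on V1. Between clones 5 and 1 the leucine-rich adhesion gene AMIGO2 was the 1 gene called, beside 3.02% of genes (0.673% higher, 2.35% lower). It read 8.55 and 8.53 on clone 5, against 10.34 and 10.16 on clone 1 (log2 difference -1.71, SE 0.10, limma adjusted p = 0.00115).

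Genes for partners of these molecules and for their processing, 30 of 30 measured, also had 0 called between the arms by limma, beside 1.55% of all genes. At an unadjusted limma p under 0.05 were 7 of the 30, beside 6468 of all 54613 probe sets. The median difference over the list was 0.04, and 9 of the 30 were dim on all 7 arrays. The arms did not overlap at FYN (1.78, SE 0.60), ANK2 (1.27, SE 0.43), ADAM17 (0.44, SE 0.15), ITGA5 (0.38, SE 0.13) and PRNP (0.14, SE 0.09). Nor did they at LAMA4 (-0.74, SE 0.16) and NRP1 (-0.35, SE 0.10), beside 11.4% of all probe sets, a share that is not per gene. FYN was dim on V1, and ANK2 was dim on all 3 vector arrays. Between clones 5 and 1, ANK2, an ankyrin, was lower in clone 5 (2.35% of all genes were), with a difference of -1.44 (SE 0.17, limma adjusted p = 0.0110), and so was EGFR, with -0.61 (SE 0.11, limma adjusted p = 0.0424). ANK2 was dim on both arrays of clone 5. In V1 (2.64% of all genes called higher, 5.08% lower), EGFR was higher than in V3 by 1.35 (SE 0.14, limma adjusted p = 0.00398). The kinase gene FYN, which acts below NCAM1, read 3.96 on V1 and 6.42 and 6.50 on V3, a difference of -2.50 (SE 0.16, limma adjusted p = 0.00107). The sheddases ADAM10 and ADAM17 did not pass in any of the 3 contrasts.

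Epithelial and neural markers also differed between clones. In V1 against V3, 4 of 11 epithelial markers were lower by limma (KRT8, KRT19, CDH1 and TSPAN8), with CDH1 at 3.83 on V1 and 6.17 and 6.36 on V3, beside 5.08% of all genes called lower. Clone 5 had 3 of 11 higher than clone 1 (KRT8, KRT18 and KRT19), beside 0.673% of all genes. Of 13 neural markers 2 were higher and 1 lower in V1, beside 2.64% and 5.08%. The mean level of the neural list was 5.64 to 5.71 on the arrays labelled S100P, against 5.47 to 5.53 on the vector arrays, with NEFL, NEFM, STMN2, S100B and ELAVL4 dim on all arrays. TUBB3 and MBP of that list read at least 8 on every array. The median difference over the neural list was 0.03, while SYT1 differed by 1.51 (SE 0.39), MAP2 by 0.43 (SE 0.13) and MBP by 0.41 (SE 0.26). The mean of the epithelial list was 8.20 to 8.50 against 8.09 to 8.73. These markers were named after their values were seen. The part of these differences in the member values was not tested.

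Genes whose profile over the 7 arrays was most like that of LSAMP at 214460_at, among 1977 genes with a range of at least 1 log2 unit, were the actin-bundling gene PALLD (Pearson r = 0.996), the mevalonate enzyme gene MVD (0.992), SOX9-AS1 (0.987), the choline transporter gene SLC44A1 (0.984) and the esterase gene CES1 (0.984). For ALCAM at 201952_at they were the magnesium transporter gene SLC41A2 (0.993), the kinase gene TNIK (0.993), HACD3 of fatty acid elongation (0.992), the ductal transcription factor gene SOX9 (0.991) and the ciliary gene TMEM17 (0.990). Each r describes 7 arrays of 4 clones that share the 2 arms.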

How the data were processed

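The deposited table holds log2 expression values that the authors made with RMA (background correction, normalization between arrays, summary of probes into a value per probe set), as the submitters' processing notes name it. Its scale is not stated in words and was taken as log2 from its range of 1.79 to 14.4. The version of RMA is not given in the sources used here, nor whether the 7 arrays went through it as 1 set. After 62 control probe sets were left out, 54613 were tested. In the platform annotation 41091 of these have 1 gene symbol, 1801 several and 11721 none, and only those with 1 symbol name a gene. A gene is represented by its brightest probe set on average. Precision is limited by the number of arrays.

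Differences between arms came from limma 3.58.1 (R 4.3.3, statmod 1.5.0) with the arm as fixed effect and the clone as random block (consensus correlation 0.287). This 1 correlation was applied to every probe set, and the SEs between arms depend on it. It was 0.583 among probe sets with a mean of at least 5 and -0.418 without clone 1, the extremes over the alternatives. Differences between clones came from limma with the 4 clones as fixed effects. All tests were two-sided, and p-values were adjusted by Benjamini-Hochberg over the 54613 probe sets, at 0.05. The members and lists were chosen with earlier results of these data known. Of the adhesion and partner lists, genes passing in a contrast were named, up to 6 of largest difference per list and contrast, and up to 5 genes of most similar profile for LSAMP and ALCAM. Genes of those lists whose arms did not overlap were named after their values were seen, as was IGLON5. Alternatives were a further quantile normalization, a minimum mean of 5, a trended robust prior, no clone block, clone averages and the gene mean over its probe sets. Further ones were the array letter as a fixed effect without V1, and leaving out each array or clone.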

Additional observations from a re-analysis of the deposited data

Results flagged for a closer look

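The CADM1 probe set 209031_at differed between the 2 clones labelled S100P, with a log2 difference of -0.96 for clone 5 minus clone 1, tested in limma as given above. At 6 of 37 member probe sets 1 of the 4 arrays labelled S100P lay far from the other 3 by Dixon's test, which flags about 1 in 20 groups by chance. All but the NTM one were dim on all 7 arrays. For NTM at 222020_s_at array 1a was lowest with 4.31, a gap of 0.054. For NEGR1 array 1a was highest at 243357_at with 4.21 and lowest at 239548_at with 2.47. For NRCAM at 204105_s_at array 5a was lowest with 2.83, and for NCAM1 at 217359_s_at array 1b was lowest with 2.66. At the NTM and NRCAM probe sets the other 3 arrays labelled S100P had identical values. Any gap is flagged there, and the rate of 1 in 20 does not apply. The widest gap, 0.67, was at 1556259_at of CADM1, where array 5a was highest with 4.0.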

How the results depend on the processing

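Between the arms the 6 member probe sets called became 1 with the arrays of each clone averaged first, and 3 to 7 with each array left out in turn, the lowest without V3a. All probe sets called numbered 611, against 1103 without the clone block, 8 with clones averaged first, 1355 without clone 5, 1675 without clone V3 and 159 to 1708 with each array left out, the highest without V1. The letters a and b did not pair the arrays (the a minus b differences of 2 clones correlated at -0.08 to 0.06). With the letter as a further fixed effect, without V1, 917 were called, 7 of them members. The count without V1 and without the letter was 1708. Between clones 5 and 1, 1195 were called, against 2653 with a minimum mean of 5 and 0 to 1195 with each array left out, of which 0 to 1 were members. At an unadjusted p under 0.05 limma gave 4468 to 11537 where the count was 0. Between V1 and V3, 3195 were called, against 5053 with that minimum and 0 to 909 with each array left out, of which 0 were members. The smaller counts come with fewer arrays and 2 residual degrees of freedom. As the mean over all its probe sets, the arm difference was 1.48 for LSAMP and 0.93 for ALCAM. So averaged, L1CAM in V1 minus V3 was -0.58 (limma adjusted p = 0.0520) and CADM1 0.15 (0.550), neither called.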

Other observations

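Genes next to LSAMP and ALCAM were read as values, chosen after the member values were seen. Of the 5 measured genes on each side of LSAMP in the RefSeq order, 0 of 10 were called between the arms by limma. At an unadjusted limma p under 0.05 was 1 of them, and their differences ran from -0.12 to 1.02. Of all genes 1.55% were called, and 6468 of 54613 probe sets had an unadjusted limma p under 0.05. GAP43, the next gene on one side, differed by -0.12 (SE 0.11), and LSAMP-AS1, on the other, by 0.04 (SE 0.14). The highest was the transcription factor gene ZBTB20, with 1.02 (SE 0.44), which was lower in V1 than in V3, with a difference of -1.84. Around ALCAM 0 of 10 were called between the arms by limma, 3 at an unadjusted p under 0.05, with differences of -0.19 to 1.36. The adjacent gene CBLB, a ubiquitin ligase, had the highest, 1.36 (SE 0.50), and it was lower in V1 than in V3, with a difference of -2.10, a direction opposite to that of ALCAM itself.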
